A study of Mus musculus with 15 samples.

Results

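The 39 genes described here are interferon-stimulated genes and the receptor chains that interferon acts through, followed in mouse hematopoietic stem cells (HSCs) sorted into bins by the amount of a fluorescent histone still in them. They were taken by symbol from a list of names chosen with earlier results of these data known. All 39 were found among the 31298 symbols of the table. All 39 passed the filter on low values, which left 27994 genes for testing, and none was at the lowest value of the table in any library. By role they are 4 receptor chains, 4 signalling and transcription factors, 8 sensors of foreign nucleic acid, 12 antiviral effectors, 5 genes of the ISG15 system with related enzymes, and 6 other induced genes.

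All mice carried 2 transgenes, hCD34-tTA and TetO-H2BGFP, in which human CD34 regulatory sequence drives a transactivator that switches on a histone H2B joined to green fluorescent protein. Doxycycline in the drinking water shuts the transactivator off, after which each division dilutes the fluorescent histone. HSCs were sorted as LSK cells (lineage low, Sca1 positive, c-Kit positive) that lacked CD48 and Flk2 and carried CD150, and were split into the bins GFP4, GFP3, GFP2 and GFP1, while Total is the same sort undivided. Each of the 5 groups has 3 libraries, numbered I, II and III, which differ in age (5, 5.5 and 6.5 months) and in time on doxycycline (12, 14 and 16 weeks), so every group shares the strain and the drug and there is no group without either. The labels do not say which end of the numbering keeps most label, and a higher number is taken to mean more label. They also do not say whether a library is 1 mouse or a pool, so a p-value reflects only how far these libraries vary, which may be technical in part.

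Interferons are secreted signalling proteins, and cells release those of type I when they sense viral or other foreign nucleic acid. Type I interferons bind a receptor made of Ifnar1 and Ifnar2, and the receptor's kinases, Jak1 and Tyk2, phosphorylate STAT proteins, Stat2 among them, which join Irf9 in a complex that binds the interferon-stimulated response element of target promoters. Interferon gamma binds Ifngr1 and Ifngr2 and acts mainly at another element, the gamma-activated sequence, and Irf1 is one of its first targets. HSCs carry these receptors, and several of the target genes are known to be on in stem cells without infection.

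The core of the response element is a GAAA, any 2 bases and a second GAAA, which reads as a TTTC, any 2 bases and a second TTTC when it lies on the opposite strand. It was searched on both strands in the RefSeq promoter sequences (build GRCm38.p6), 250 bases before to 50 bases after each gene's start. Of the 39 genes 29 were in that table; those not found there were Ifi27, Mx1, Mx2, Usp18, Parp9, Parp14, Oas2, Dhx58, Zbp1 and Rtp4. The core was present in 11 of the 29 (37.9%), against 1131 of all 32851 promoters (3.44%). By gene, 1079 of 27025 genes had it in at least 1 of their promoters (3.99%). Among the genes that were lower in GFP1 than in GFP4, described next, 9 of 21 with a promoter had it, and among those not past the threshold 2 of 8. The 6 promoters below belong to genes of different families, and were picked by smallest p in that comparison among those with a match. They run 5′ to 3′ on the gene's own strand, with the matches in capitals and the stretch after the start left out except for 12 bases of Ddx58, whose match begins just past it.
Rsad2 (chr12:26456453-26456702, minus strand): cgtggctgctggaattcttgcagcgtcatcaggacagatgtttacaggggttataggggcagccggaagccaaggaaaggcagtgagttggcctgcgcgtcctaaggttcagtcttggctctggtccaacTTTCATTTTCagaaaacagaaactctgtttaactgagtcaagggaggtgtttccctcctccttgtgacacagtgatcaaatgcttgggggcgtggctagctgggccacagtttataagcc
Ifit1 (chr19:34640639-34640888, plus strand): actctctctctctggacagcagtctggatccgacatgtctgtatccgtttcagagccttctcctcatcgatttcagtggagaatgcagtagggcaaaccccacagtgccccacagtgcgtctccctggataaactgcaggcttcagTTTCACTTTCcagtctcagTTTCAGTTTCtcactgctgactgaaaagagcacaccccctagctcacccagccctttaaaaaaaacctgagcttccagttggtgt
Ddx58 (chr4:40239814-40240075, minus strand): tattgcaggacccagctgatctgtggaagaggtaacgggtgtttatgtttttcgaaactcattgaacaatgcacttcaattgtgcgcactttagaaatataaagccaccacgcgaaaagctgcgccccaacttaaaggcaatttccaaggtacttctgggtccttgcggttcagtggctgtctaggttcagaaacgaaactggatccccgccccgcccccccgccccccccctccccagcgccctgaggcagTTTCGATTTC
Stat2 (chr10:128270248-128270497, plus strand): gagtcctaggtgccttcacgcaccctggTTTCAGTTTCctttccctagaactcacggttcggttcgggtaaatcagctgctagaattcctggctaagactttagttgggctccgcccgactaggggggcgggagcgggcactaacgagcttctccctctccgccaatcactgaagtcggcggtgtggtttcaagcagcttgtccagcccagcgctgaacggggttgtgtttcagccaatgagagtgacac
Oas3 (chr5:120777660-120777909, minus strand): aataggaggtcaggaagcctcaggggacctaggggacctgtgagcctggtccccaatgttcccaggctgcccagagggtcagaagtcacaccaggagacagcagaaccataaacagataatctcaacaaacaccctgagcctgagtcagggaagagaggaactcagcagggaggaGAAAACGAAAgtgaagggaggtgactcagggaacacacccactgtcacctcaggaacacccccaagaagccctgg
Isg15 (chr4:156200819-156201068, minus strand): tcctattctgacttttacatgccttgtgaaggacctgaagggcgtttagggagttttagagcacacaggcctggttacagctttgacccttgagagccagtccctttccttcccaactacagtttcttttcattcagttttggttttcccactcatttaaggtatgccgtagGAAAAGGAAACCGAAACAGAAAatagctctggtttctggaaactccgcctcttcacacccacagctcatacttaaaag
Ifit1 has 2 separate matches, and Isg15 has 3 that overlap into a single run. That run holds the tandem form, in which 3 GAAA stand in a row with 2 free bases after each of the first 2. The tandem form overlaps the shorter core by construction and was found in 3 of the 29 genes (Isg15, Bst2 and Oas1a). Over the whole set it was in 36 of 27025 genes (0.133%) and in 38 of all promoters (0.116%). The gamma-activated sequence has the core TTCNNNGAA, present in 9 of the 29 genes (31.0%), against 9.55% of all genes and 8.30% of all promoters. These 9 were Irf1, Ifnar1, Ifnar2, Ifi35, Ifit2, Isg20, Eif2ak2, Bst2 and Oas1a, of which 3 were lower in GFP1 and 6 were not past the threshold. A match describes the letters of the window and does not show that a factor binds there.

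Expression is given as the authors' log2 values, 1 per gene and library. The 15 libraries share one distribution of values, so total RNA per cell was levelled and read depth is unknown. Tests compare values between libraries within a gene, because the unit before the logarithm is not given. Levels summed over genes and cuts on the mean log2 value do set genes side by side, and rest on that unknown unit. In bulk libraries, fewer cells that express a gene and less RNA per cell cannot be told apart. The HSC markers Kit, Slamf1, Procr, Hlf, Mecom and Fgd5 were above the lowest value in every library. So were Flt3 (Flk2) and Cd48, which the gate selects against, and all listed markers of B cells, macrophages and neutrophils. Presence above the lowest value therefore does not identify the cells. The share of immunoglobulin genes in the summed linear values was 0.00730% to 0.0737% in the libraries of GFP4, GFP3 and GFP2, 4.92% to 5.28% in GFP1 and 4.34% to 5.50% in Total. The GFP1 and Total libraries therefore stand apart in antibody transcripts, and comparisons within the other 3 bins are given further on.

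The 39 genes were lower in GFP1 than in GFP4 as a group. Of them 27 fell, none rose and 12 did not pass the test (limma, adjusted p under 0.05 over all 27994 genes, 3 libraries per bin). Over all genes, 10.3% were lower in GFP1 and 9.27% were higher. The median log2 difference, GFP1 minus GFP4, was −0.55 over the 39 and −0.069 over all genes, and 36 of the 39 differences were negative. Well-expressed genes are called more often, so the 9943 genes with a mean log2 value in the range of the 39 (7.60 to 12.51) were also counted, and 21.5% of those were lower, with a median of −0.052. In 32 of the 39 every GFP1 library was below every GFP4 library, a pattern shown by 17.6% of all genes and by 31.8% of the 9943. Within each replicate number GFP1 was below GFP4 in 34 of the 39, against 24.3% of all genes. In none was every GFP1 library above every GFP4 library, against 15.1% of all genes.

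**Figure D1:**
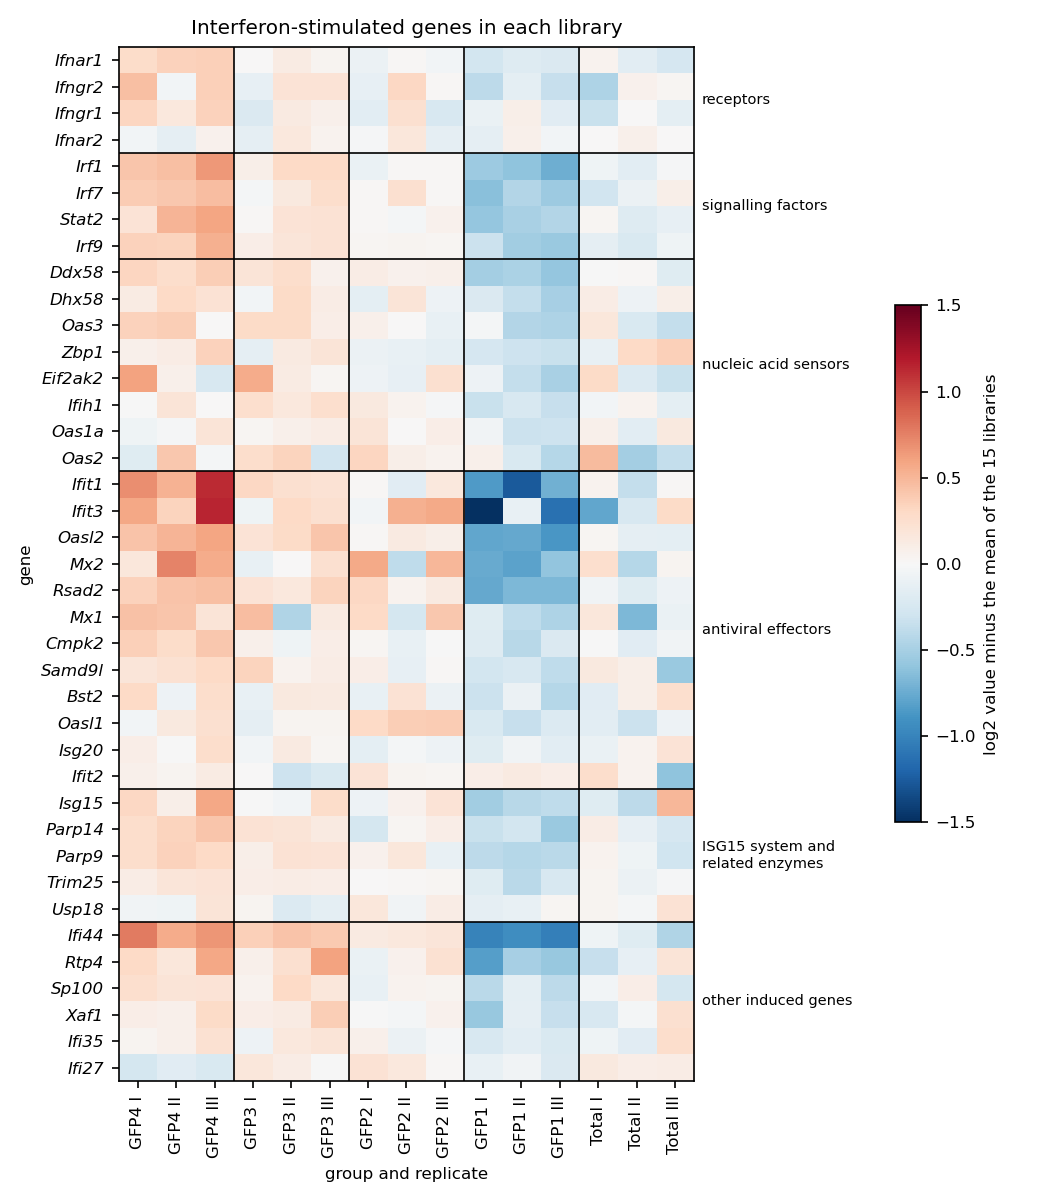
Each cell is the log2 value of a gene (rows, by role) in a library (columns, by bin and replicate), minus that gene's mean over the 15 libraries; red is above the mean and blue below. Averaged over the 39 genes, the deviation is 0.23 to 0.34 in the GFP4 libraries, 0.087 to 0.15 in GFP3, 0.046 to 0.071 in GFP2, −0.42 to −0.35 in GFP1 and −0.12 to −0.029 in Total.

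The mean deviation of the 39 genes, each gene taken relative to its own mean over the 15 libraries, was highest in the GFP4 libraries, at 0.24, 0.23 and 0.34. It was 0.087, 0.14 and 0.15 in the GFP3 libraries, 0.046, 0.051 and 0.071 in GFP2 and −0.39, −0.35 and −0.42 in GFP1. The Total libraries, at −0.029, −0.12 and −0.047, lay between GFP2 and GFP1. No 2 of the 5 groups overlapped in this average.

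Of the 4 receptor chains, 2 fell and 2 did not pass. Ifnar1, a chain of the type I interferon receptor (chromosome 16, 91485238 to 91507441 of GRCm38, GENCODE), had log2 values of 12.14, 12.21 and 12.22 in GFP4, 11.87, 11.98 and 11.90 in GFP3, 11.78, 11.88 and 11.82 in GFP2, 11.58, 11.67 and 11.65 in GFP1 and 11.91, 11.70 and 11.61 in Total. The GFP4 libraries were above all others, GFP3 and GFP2 overlapped, and GFP1 was below every library of the other bins. Ifnar1 fell by 0.56 (SE 0.090, adjusted p = 0.000113), to 67.9% of its GFP4 level. Ifnar2, the partner chain (chromosome 16, 91372783 to 91405589), had log2 values of 11.67, 11.58 and 11.78 in GFP4, 11.57, 11.86 and 11.76 in GFP3, 11.70, 11.88 and 11.58 in GFP2, 11.57, 11.78 and 11.67 in GFP1 and 11.71, 11.79 and 11.72 in Total. Its groups overlapped throughout, and the log2 difference, GFP1 minus GFP4, was 0.0015 (95% interval −0.21 to 0.22, adjusted p = 0.999).

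Ifngr1, the ligand-binding chain of the interferon gamma receptor (chromosome 10, 19591949 to 19610229), had log2 values of 12.78, 12.61 and 12.79 in GFP4, 12.23, 12.58 and 12.53 in GFP3, 12.29, 12.69 and 12.21 in GFP2, 12.35, 12.54 and 12.28 in GFP1 and 12.12, 12.46 and 12.30 in Total. All 3 GFP1 libraries were below all 3 GFP4 libraries, but the log2 difference of −0.34 missed the threshold (SE 0.13, adjusted p = 0.0693). It passed in 5 of 26 other settings, among them the fit without GFP1 replicate II and GFP2 replicate II (log2 −0.42). Ifngr2, the chain that passes the signal on (chromosome 16, 91547072 to 91565623), had log2 values of 10.20, 9.72 and 10.11 in GFP4, 9.64, 9.96 and 9.97 in GFP3, 9.64, 10.07 and 9.78 in GFP2, 9.36, 9.61 and 9.41 in GFP1 and 9.29, 9.82 and 9.79 in Total. GFP1 was below every library of the other bins, which overlapped each other, and Total spanned both. Ifngr2 fell by 0.55 (SE 0.17, adjusted p = 0.0266). That call was lost when GFP4 replicate I or III or GFP1 replicate I or III was left out. Ifngr2 also lost it with neither trend nor robust moderation (largest adjusted p over 26 other settings = 0.129).

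The 4 signalling and transcription factors all fell, with a median log2 difference of −0.94. Stat2, which carries the activating domain of the response element complex (chromosome 10, 128270559 to 128292849), had log2 values of 11.71, 12.01 and 12.09 in GFP4, 11.53, 11.71 and 11.72 in GFP3, 11.52, 11.47 and 11.57 in GFP2, 10.92, 11.02 and 11.07 in GFP1 and 11.54, 11.31 and 11.38 in Total. The GFP1 libraries were below all others, and GFP4 replicate I fell within the range of GFP3. Stat2 fell by 0.94 in GFP1 relative to GFP4 (SE 0.11, adjusted p = 2.33e-06). Irf9, the subunit that recognises the element (chromosome 14, 55603571 to 55610030), had log2 values of 12.68, 12.67 and 12.87 in GFP4, 12.43, 12.52 and 12.56 in GFP3, 12.36, 12.38 and 12.37 in GFP2, 12.02, 11.81 and 11.78 in GFP1 and 12.20, 12.11 and 12.28 in Total. The 4 bins of Irf9 did not overlap, and it fell by 0.87 (SE 0.089, adjusted p = 6.42e-07).

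Irf7, the factor that drives interferon alpha genes (chromosome 7, 141262706 to 141266481), had log2 values of 11.58, 11.60 and 11.66 in GFP4, 11.18, 11.35 and 11.46 in GFP3, 11.22, 11.44 and 11.22 in GFP2, 10.58, 10.76 and 10.65 in GFP1 and 10.91, 11.11 and 11.29 in Total. GFP1 was below every other library, GFP4 was above every other one, and the bins GFP3 and GFP2 overlapped. Irf7 fell by 0.95 (SE 0.11, adjusted p = 3.44e-06), to 51.7% of its GFP4 level. Irf1, an early target of interferon gamma signalling (chromosome 11, 53770014 to 53778374), had log2 values of 12.79, 12.83 and 13.02 in GFP4, 12.46, 12.67 and 12.67 in GFP3, 12.28, 12.39 and 12.39 in GFP2, 11.82, 11.77 and 11.64 in GFP1 and 12.30, 12.21 and 12.35 in Total. Its 4 bins did not overlap, and Irf1 fell by 1.14 (SE 0.092, adjusted p = 4.3e-08), the largest fall of the 4 factors and the third smallest p of the 39 genes. None of these 4 calls was lost in any of the 26 other settings.

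**Figure D2:**
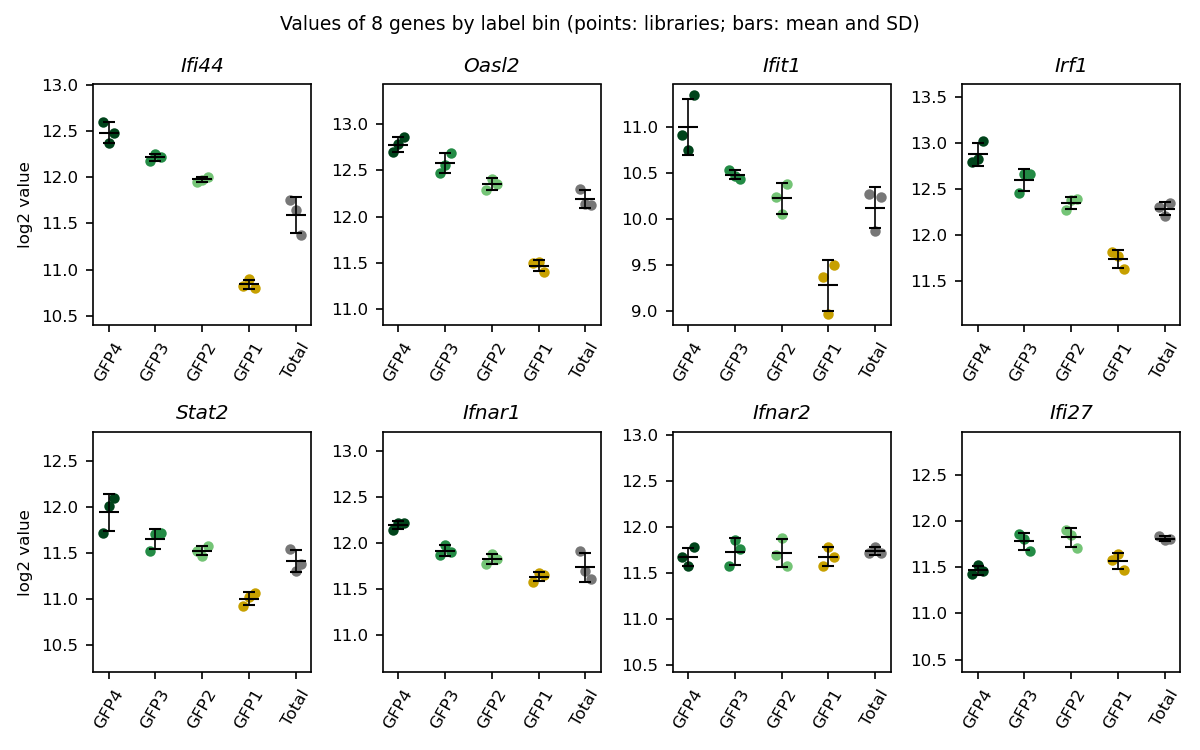
Log2 values (vertical axis; each panel has its own range) of 8 genes in the 3 libraries of each group (points), with mean and SD. Ifi44, Oasl2, Ifit1, Irf1, Stat2 and Ifnar1 step down from GFP4 to GFP1, while Ifnar2 (log2 difference GFP1 minus GFP4 0.0015) and Ifi27 (0.096) do not.

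Of the 8 sensors, 5 fell and 3 did not pass, with a median log2 difference of −0.46. Ddx58, which encodes the RNA sensor RIG-I (chromosome 4, 40203773 to 40239828), had log2 values of 12.23, 12.17 and 12.28 in GFP4, 12.10, 12.17 and 11.97 in GFP3, 12.02, 11.98 and 11.99 in GFP2, 11.39, 11.43 and 11.33 in GFP1 and 11.90, 11.93 and 11.72 in Total. The GFP1 values were the lowest, while GFP4 and GFP3 overlapped, and Ddx58 fell by 0.84 (SE 0.087, adjusted p = 7.85e-07). Dhx58, the related regulator LGP2, fell by 0.57 (SE 0.12, adjusted p = 0.00162). Ifih1, the long-RNA sensor MDA5, fell by 0.37 (SE 0.093, adjusted p = 0.00705), though with GFP4 replicate II left out the adjusted p was 0.0533. Oas3, which makes oligoadenylates that activate the nuclease RNase L, fell by 0.55 (SE 0.14, adjusted p = 0.00828), a call lost without GFP1 replicate III. Oas3 also lost it without GFP1 replicate II and GFP2 replicate II together, and with neither trend nor robust moderation (largest adjusted p over 26 other settings = 0.0568). Zbp1, a sensor of Z-form nucleic acid, fell by 0.48 (SE 0.14, adjusted p = 0.0216), which did not pass without GFP4 replicate III or GFP1 replicate II or III. Nor did it pass without GFP1 replicate II and GFP2 replicate II together (largest adjusted p over 26 other settings = 0.115).

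The 3 sensors that did not pass were Eif2ak2, Oas1a and Oas2. Eif2ak2, the kinase PKR that halts translation (chromosome 17, 78852564 to 78882573), had log2 values of 11.80, 11.28 and 10.96 in GFP4, 11.76, 11.33 and 11.23 in GFP3, 11.12, 11.08 and 11.44 in GFP2, 11.13, 10.85 and 10.71 in GFP1 and 11.49, 11.00 and 10.87 in Total. Replicate I was the highest library in GFP4, GFP3, GFP1 and Total, the groups overlapped, and the log2 difference was −0.45 (95% interval −0.92 to 0.016, adjusted p = 0.199). Within each replicate number, which marks age and time on doxycycline, GFP1 was below GFP4, and Eif2ak2 passed in 1 of 26 other settings (adjusted p = 0.0397). Oas1a, another oligoadenylate synthetase (chromosome 5, 120896256 to 120907521), had log2 values of 11.21, 11.26 and 11.47 in GFP4, 11.30, 11.35 and 11.39 in GFP3, 11.47, 11.28 and 11.37 in GFP2, 11.23, 10.95 and 10.97 in GFP1 and 11.36, 11.11 and 11.43 in Total. Its GFP1 and GFP4 libraries overlapped through GFP1 replicate I, and the log2 difference was −0.26 (adjusted p = 0.114), which passed without that library (log2 −0.35). Oas2, of the same family (chromosome 5, 120730333 to 120749853), had log2 values of 9.69, 10.28 and 9.84 in GFP4, 10.14, 10.21 and 9.59 in GFP3, 10.20, 9.96 and 9.92 in GFP2, 9.95, 9.65 and 9.45 in GFP1 and 10.35, 9.37 and 9.52 in Total. All 5 groups overlapped, and the log2 difference was −0.25 (95% interval −0.76 to 0.25, adjusted p = 0.596).

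Of the 12 antiviral effectors 8 fell, none rose and 4 did not pass, with a median log2 difference of −0.66. Oasl2, an oligoadenylate synthetase-like protein (chromosome 5, 114896936 to 114912234), had log2 values of 12.70, 12.78 and 12.86 in GFP4, 12.48, 12.56 and 12.69 in GFP3, 12.29, 12.41 and 12.36 in GFP2, 11.50, 11.51 and 11.40 in GFP1 and 12.30, 12.14 and 12.12 in Total. GFP1 lay apart from the other bins, whose order was GFP4, GFP3, GFP2 with no overlap, and Oasl2 fell by 1.31 (SE 0.087, adjusted p = 5.39e-09), to 40.2% of its GFP4 level. Ifit1, which binds viral RNA ends (chromosome 19, 34640871 to 34650009), is shown because it had the largest fall of the 39, a choice made after its values were seen. Its log2 values were 10.91, 10.74 and 11.34 in GFP4, 10.53, 10.47 and 10.44 in GFP3, 10.24, 10.05 and 10.38 in GFP2, 9.37, 8.97 and 9.50 in GFP1 and 10.27, 9.86 and 10.23 in Total. No bin of Ifit1 overlapped another, and it fell by 1.72 (SE 0.16, adjusted p = 3.04e-07), to 30.3% of its GFP4 level.

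The other 6 effectors that fell ranged widely in size. Ifit3, a binding partner of Ifit1, fell by 1.64 (SE 0.35, adjusted p = 0.00267), with GFP1 libraries at 6.94, 8.45 and 7.45 and GFP4 libraries at 9.15, 8.90 and 9.71. Mx2, a dynamin-like GTPase, fell by 1.20 (SE 0.27, adjusted p = 0.00242), and Rsad2, the radical enzyme viperin, by 1.11 (SE 0.10, adjusted p = 2.14e-07). Cmpk2, a nucleotide kinase whose gene neighbours Rsad2, fell by 0.62 (SE 0.099, adjusted p = 9.96e-05). Samd9l, a cytoplasmic restriction factor, fell by 0.53 (SE 0.14, adjusted p = 0.00894), a call lost with neither trend nor robust moderation (adjusted p = 0.0587). Bst2, or tetherin, which holds budding virus at the cell surface, fell by 0.44 (SE 0.14, adjusted p = 0.0276). That call was lost when GFP4 replicate I or III or GFP1 replicate I or III was left out. Bst2 also lost it with median-of-ratios rescaling and with neither trend nor robust moderation (largest adjusted p over 26 other settings = 0.133).

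The effectors that did not pass were Mx1, Oasl1, Isg20 and Ifit2. Mx1, the GTPase active against influenza virus (chromosome 16, 97447035 to 97462907), had log2 values of 8.70, 8.68 and 8.45 in GFP4, 8.72, 7.81 and 8.39 in GFP3, 8.56, 7.99 and 8.66 in GFP2, 8.07, 7.88 and 7.79 in GFP1 and 8.43, 7.58 and 8.16 in Total. GFP1 lay wholly below GFP4, with a log2 difference of −0.70 (SE 0.25, adjusted p = 0.0634), while the middle bins spanned both. It passed in 6 of 26 other settings, with adjusted p from 0.0169 to 0.180. Oasl1, a paralog of Oasl2 (chromosome 5, 114923240 to 114937915), had log2 values of 8.52, 8.72 and 8.80 in GFP4, 8.43, 8.60 and 8.60 in GFP3, 8.86, 8.93 and 8.94 in GFP2, 8.33, 8.22 and 8.36 in GFP1 and 8.41, 8.24 and 8.49 in Total. Its highest bin was GFP2 and its lowest GFP1, and the log2 difference of −0.38 between GFP1 and GFP4 did not pass (adjusted p = 0.112, past the threshold in 2 of 26 other settings), whereas that of −0.61 between GFP1 and GFP2 did (SE 0.16, adjusted p = 0.0205).

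Isg20, an exonuclease (chromosome 7, 78913424 to 78920396), had log2 values of 10.71, 10.60 and 10.87 in GFP4, 10.57, 10.74 and 10.63 in GFP3, 10.47, 10.58 and 10.53 in GFP2, 10.42, 10.55 and 10.45 in GFP1 and 10.50, 10.66 and 10.82 in Total. Its GFP1 libraries were all below its GFP4 libraries, with a log2 difference of −0.25 that did not pass (95% interval −0.48 to −0.020, adjusted p = 0.137). Ifit2, a relative of Ifit1 (chromosome 19, 34550694 to 34576419), had log2 values of 10.83, 10.79 and 10.86 in GFP4, 10.76, 10.43 and 10.52 in GFP3, 10.95, 10.79 and 10.77 in GFP2, 10.84, 10.88 and 10.84 in GFP1 and 11.01, 10.80 and 10.14 in Total. GFP1 and GFP4 were close, at a log2 difference of 0.031 (95% interval −0.30 to 0.36, adjusted p = 0.945), and the lowest library was Total replicate III.

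In the ISG15 system and its related enzymes 4 of 5 fell. Parp9, an ADP-ribosyltransferase partner of the ubiquitin ligase Dtx3l (chromosome 16, 35938470 to 35972605), had log2 values of 11.89, 11.97 and 11.93 in GFP4, 11.71, 11.84 and 11.83 in GFP3, 11.70, 11.79 and 11.52 in GFP2, 11.23, 11.20 and 11.22 in GFP1 and 11.68, 11.56 and 11.33 in Total. GFP1 was apart from every other library of Parp9, and it fell by 0.71 (SE 0.10, adjusted p = 2.54e-05). Its neighbour Parp14, of the same enzyme family, fell by 0.72 (SE 0.11, adjusted p = 9.67e-05). Isg15 itself, the ubiquitin-like modifier, fell by 0.76 (SE 0.20, adjusted p = 0.00898), and the call was lost without GFP4 replicate III (adjusted p = 0.0594). Trim25, the ubiquitin ligase that acts on RIG-I, fell by 0.44 (SE 0.082, adjusted p = 0.000454). Usp18, which removes ISG15 and restrains the type I receptor (chromosome 6, 121245906 to 121270917), had log2 values of 9.94, 9.93 and 10.19 in GFP4, 10.03, 9.79 and 9.85 in GFP3, 10.17, 9.94 and 10.11 in GFP2, 9.86, 9.88 and 10.03 in GFP1 and 10.03, 9.96 and 10.22 in Total. The groups of Usp18 overlapped, with a log2 difference of −0.096 (95% interval −0.36 to 0.17, adjusted p = 0.727).

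Of the 6 other induced genes 4 fell. Ifi44, a cytoplasmic interferon-induced protein (chromosome 3, 151730922 to 151749960), had the smallest p of the 39 and log2 values of 12.60, 12.38 and 12.48 in GFP4, 12.18, 12.25 and 12.22 in GFP3, 11.96, 11.98 and 12.01 in GFP2, 10.82, 10.90 and 10.80 in GFP1 and 11.76, 11.64 and 11.38 in Total. No bin overlapped another, GFP1 fell to 31.9% of the GFP4 level, and the fall was 1.65 on the log2 scale (SE 0.098, adjusted p = 1.47e-09). Rtp4, a chaperone of surface receptors, fell by 0.98 (SE 0.16, adjusted p = 0.000115), and Sp100, of the nuclear bodies, by 0.53 (SE 0.10, adjusted p = 0.000639). Xaf1, an antagonist of the apoptosis inhibitor XIAP, fell by 0.51 (SE 0.13, adjusted p = 0.00838), which did not pass without GFP4 replicate III or GFP1 replicate I (largest adjusted p over 26 other settings = 0.0614).

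Ifi35, a leucine zipper protein (chromosome 11, 101448407 to 101458698), had log2 values of 11.05, 11.08 and 11.24 in GFP4, 10.94, 11.17 and 11.20 in GFP3, 11.09, 10.92 and 10.99 in GFP2, 10.78, 10.85 and 10.78 in GFP1 and 10.94, 10.84 and 11.27 in Total. GFP1 lay below GFP4 throughout, and the log2 difference of −0.32 was near the threshold (adjusted p = 0.0592, and 0.0188 to 0.220 over 26 other settings, of which 6 passed). Ifi27, a small interferon alpha-inducible membrane protein (chromosome 12, 103434211 to 103440239), had log2 values of 11.43, 11.52 and 11.46 in GFP4, 11.86, 11.81 and 11.68 in GFP3, 11.91, 11.85 and 11.71 in GFP2, 11.58, 11.64 and 11.47 in GFP1 and 11.84, 11.79 and 11.80 in Total. Its bin mean was lowest in GFP4, every GFP3 and GFP2 library was above every GFP4 library, and GFP1 differed from GFP4 by 0.096 (95% interval −0.091 to 0.28, adjusted p = 0.584).

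**Figure D3:**
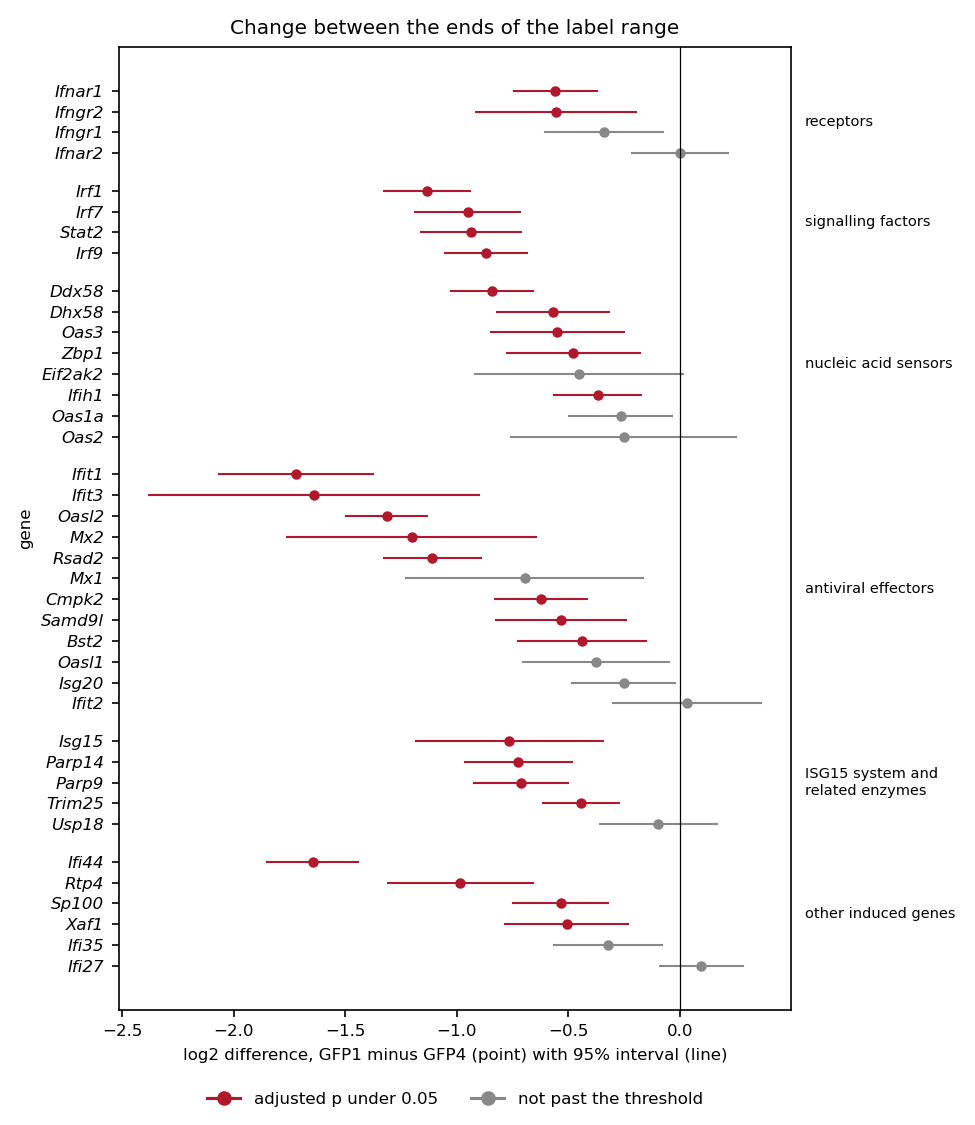
Log2 difference, GFP1 minus GFP4, of each of the 39 genes by role (point) with its 95% interval (line); red marks an adjusted p under 0.05. All 27 red genes lie left of 0, from −1.72 for Ifit1 to −0.37 for Ifih1.

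Several of these genes lie side by side in the genome, and neighbours did not always share a call. On chromosome 16, Ifnar2, Ifnar1 and Ifngr2 fall between 91372783 and 91565623, and Ifnar1 and Ifngr2 fell while Ifnar2 differed by 0.0015. On chromosome 19, Ifit2, Ifit3 and Ifit1 fall between 34550694 and 34650009, and the last 2 fell while Ifit2 differed by 0.031. On chromosome 5, Oasl2 fell and its neighbour Oasl1 did not pass, and of Oas2, Oas3 and Oas1a, between 120730333 and 120907521, only Oas3 passed. Rsad2 and Cmpk2 on chromosome 12 both fell, as did Parp14 and Parp9 on chromosome 16. The difference between neighbours was not tested. Near-identical copies make the share of reads between some of them uncertain. Ifit3b, the copy of Ifit3, differed by −1.45 (adjusted p = 0.0899), Ifit1bl1, a relative of Ifit1, by −0.87 (adjusted p = 0.0653), and Oas1g, a copy of Oas1a, fell by 0.57 (adjusted p = 0.0282).

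A linear trend across the 4 bins was fitted, in log2 units per step, with GFP4 first and GFP1 last. The end bins weigh most in it, so a change at a single step can pass and the trend cannot show grading. It was negative and past the threshold in 28 of the 39 genes, against 10.5% of all genes, and positive and past it in none, against 9.60%. The 28 were the 27 genes lower in GFP1 than in GFP4 and Ifi35 (−0.11 per step, SE 0.037, adjusted p = 0.0456). The median change was −0.18 per step over the 39 and −0.022 over all genes. Ifit1 (−0.54 per step, SE 0.052) and Ifi44 (−0.52, SE 0.031) had the steepest slopes. In 26 of the 39 the bin means fell at every step, against 14.8% of all genes and 24.9% of those in the same range of mean value. The trend rests on the same libraries as the comparison of its ends and is not independent of it.

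The neighbouring bins were then compared one step at a time. For GFP3 against GFP4, limma called none of the 39 in either direction (all genes: 0.0143% lower, 0.0429% higher). At an unadjusted p under 0.05 there were 11 of the 39, and 1641 of the 27994 genes. The median log2 difference was −0.13, with 32 of 39 negative, while that of all genes was −0.000059. In 15 of the 39, Ifnar1, Irf1, Irf7 and Irf9 among them, all GFP3 libraries were below all GFP4 libraries, against 5.84% of all genes, and in 1, Ifi27, all were above, against 5.55%. For GFP2 against GFP3, limma again called none, as it did over all genes (0%), with 4 of the 39 and 1569 of the 27994 at an unadjusted p under 0.05. The median was −0.092 for the 39, with 30 negative, and −0.0018 for all genes, of which 14066 were negative. All GFP2 libraries were below all GFP3 libraries in 10 of the 39, against 4.86% of all genes, and above in 2, Ifit2 and Oasl1, against 5.56%. That middle step shares no library with GFP1 against GFP4.

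For GFP1 against GFP2, 16 of the 39 fell and none rose, against 4.10% and 3.06% of all genes. Among genes in the same range of mean value the shares were 8.60% and 5.03%. The median was −0.35, with 38 of 39 negative, and −0.051 over all genes. All 4 signalling factors were among the 16, with a fall of 0.63 for Irf7 (SE 0.11, adjusted p = 0.00148), and so were 6 effectors, led by Oasl2 (−0.89, SE 0.087, adjusted p = 3.44e-06) and Rsad2 (−0.87, SE 0.10, adjusted p = 3.13e-05). The remaining 6 were Ddx58 and Ifih1 among the sensors, Parp9 and Trim25, and Ifi44 and Rtp4. None of the 4 receptor chains passed. All GFP1 libraries were below all GFP2 libraries in 29 of the 39, against 14.6% of all genes, and above in none, against 2813 of the 27994 genes. With neither the intensity trend nor robust moderation the 16 became 10.

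Whether the last step differed from the first was tested directly, as GFP1 minus GFP2 less GFP3 minus GFP4. In 4 of the 39 the last step was the more negative, against 0.339% of all genes, and in none the more positive, against 0.347%. Among genes in the same range of mean value the shares were 0.694% and 0.332%. The 4 genes were Ifi44 (−0.87, SE 0.14, adjusted p = 0.00295), Oasl2 (−0.68, SE 0.12, adjusted p = 0.00935), Rsad2 (−0.69, SE 0.15, adjusted p = 0.0311) and Ifi27 (−0.57, SE 0.13, adjusted p = 0.0376). For Ifi27 the last step was not a larger fall. Its mean rose from 11.47 in GFP4 to 11.78 in GFP3, and fell from 11.83 in GFP2 to 11.56 in GFP1. In the other 35 the steps were not shown to differ. The count fell to 2 in 8 of the 15 fits that left out 1 library, namely each of the GFP4 libraries, GFP3 replicates I and II, GFP2 replicate I and GFP1 replicates I and III. It fell to 2 when normalised again without immunoglobulin genes, to 1 without GFP1 replicate II and GFP2 replicate II together, and to 0 with neither trend nor robust moderation.

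**Figure D4:**
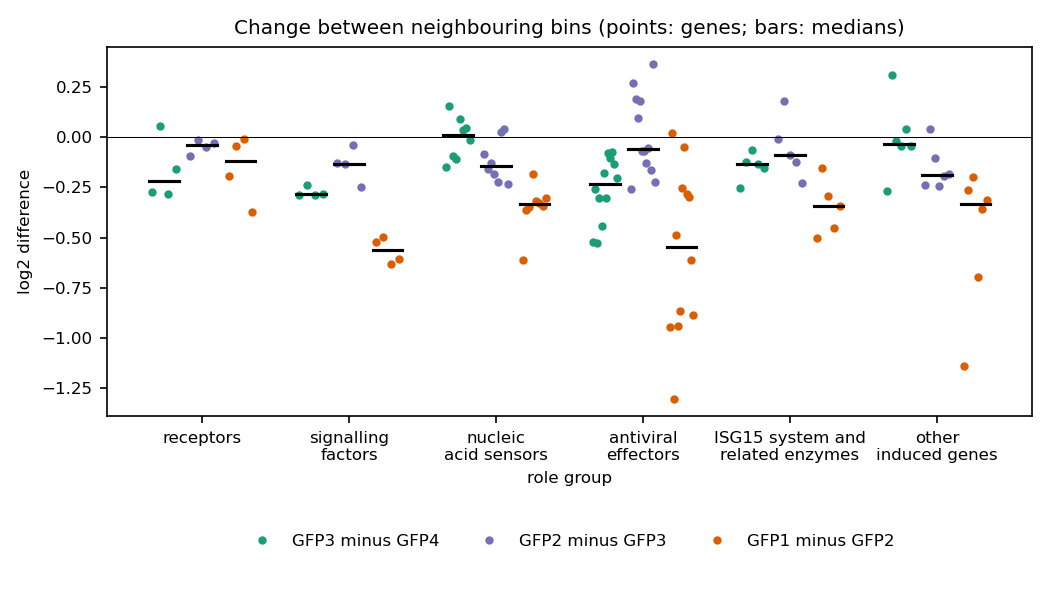
Log2 difference of each gene (points) between neighbouring bins, by role, with the median of the role as a bar. The signalling factors lie below 0 at every step, and the antiviral effectors reach −1.30 (Ifit3) in GFP1 minus GFP2.

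Because the GFP1 and Total libraries held antibody transcripts, GFP2 was set against GFP4 in a fit of the 9 libraries of GFP4, GFP3 and GFP2. There 9 of the 39 fell and 1 rose, against 2.03% and 2.80% of all genes. Among genes in the same range of mean value the shares were 4.47% and 6.03%. The median log2 difference, GFP2 minus GFP4, was −0.24 over the 39 and −0.0099 over all genes. All GFP2 libraries were below all GFP4 libraries in 19 of the 39, against 9.66% of all genes, and above in 2, Ifi27 and Oasl1, against 10.4%. The genes that fell were Ifi44 (−0.51, SE 0.079, adjusted p = 0.00191), Irf1 (−0.53, SE 0.086, adjusted p = 0.00262), Ifit1 (−0.78, SE 0.14, adjusted p = 0.00505), Oasl2, Irf9, Ifnar1, Stat2, Cmpk2 and Parp14. Ifi27 rose by 0.36 (SE 0.088, adjusted p = 0.0282). None of the 8 sensors passed, with a median of −0.18. The lower count was 4 without GFP4 replicate III and 5 without GFP2 replicate I, and Ifi27 missed the threshold without GFP4 replicate I or III or GFP2 replicate I or II. With neither the intensity trend nor robust moderation it was 0 in each direction, where over all genes 3 were called.

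Each bin was also set against Total, the undivided sort. In GFP4, 14 of the 39 were higher than in Total and 1 was lower, against 4.70% and 5.29% of all genes. Among genes in the same range of mean value the shares were 10.5% and 10.8%. Higher were Ifi44 (0.90, SE 0.098, adjusted p = 8.64e-06), Ifit1 (0.88, SE 0.16, adjusted p = 0.00149), Oasl2, Rsad2, Cmpk2, the 4 signalling factors, Ddx58, Parp9, Parp14, Ifnar1 and Ifngr1, and Ifi27 was lower (−0.34, SE 0.089, adjusted p = 0.0163). The call of Ifi27 was lost without GFP4 replicate I or III, with the compared groups alone and with neither trend nor robust moderation. The count of 14 was 10 with the compared groups alone and 10 with neither trend nor robust moderation. With the replicate number as a block it was 18. In GFP3, Ifi44 (0.63) and Oasl2 (0.39) were higher, 2 of 39 against 0.672% of all genes, and none was lower, against 1.47%. Among genes in the same range of mean value the shares were 1.42% and 2.87%. That count of 2 was 1 without GFP3 replicate II or III, without Total replicate II or III, or with neither trend nor robust moderation, 0 with the compared groups alone and 5 with the filter at 1 ppm. In GFP2 limma called none (all genes: 0.0107% higher, 0.318% lower), with 4 of the 39 and 1882 of the 27994 at an unadjusted p under 0.05.

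GFP1 against Total is the one comparison of a bin with Total in which both groups held antibody transcripts at like levels. In GFP1, 6 of the 39 were lower than in Total and none higher, against 1.41% and 0.318% of all genes. Among genes in the same range of mean value the shares were 3.17% and 0.443%. The 6 genes were Ifit1 (−0.84, SE 0.16, adjusted p = 0.0101), Ifi44 (−0.75, SE 0.098, adjusted p = 0.000331), Oasl2 (−0.72, SE 0.087, adjusted p = 0.00021), Rsad2, Irf1 and Ddx58. The count was 2 with the compared groups alone, 3 with neither trend nor robust moderation, and 5 to 9 in the other settings. The median log2 difference was −0.26 over the 39, with 37 negative, and 0.0028 over all genes. These comparisons share the Total libraries with each other, and the bins are part of the same sort as Total.

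Markers of some other cells differed between the bins, and their part in the results was not tested. Over all genes 9.27% were higher in GFP1 than in GFP4 and 10.3% lower. Of 10 plasma cell markers all 10 were higher in GFP1 than in GFP4, and their summed level as a share of the summed linear values (in ppm) was 302 to 426 in GFP4, 255 to 339 in GFP3, 268 to 297 in GFP2, 4042 to 5052 in GFP1 and 2393 to 5870 in Total. Tnfrsf17 alone of the 10 was at the lowest value, in 1 library. When the values were normalised again without immunoglobulin genes, 27 of the 39 were lower in GFP1 than in GFP4, with a median of −0.53. That setting gave 12 lower in GFP1 against GFP2 and 26 for the trend, where the main fit gave 16 and 28. Only immunoglobulin genes were left out, so other plasma cell transcripts stayed in. Of 10 markers of plasmacytoid dendritic cells, which make type I interferon, Ly6d and Siglech were higher in GFP1 and Tcf4 and Runx2 lower, and the summed level was 233 to 288 ppm in GFP1 and 227 to 259 ppm in GFP4. Its markers Cox6a2 and Klk1 were at the lowest value in 3 and 5 libraries.

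Of the 12 B cell markers 6 were higher in GFP1 and none lower, and of 12 T and NK cell markers 4 were higher and 1 lower. The shares over all genes were 9.27% and 10.3%. Of 12 macrophage and monocyte markers 1 was higher, Ly6c2, a marker of monocytes. GFP1 replicate II (1427 ppm) and GFP2 replicate II (1554 ppm) had the largest summed macrophage level, and without both libraries 26 of the 39 were lower in GFP1 than in GFP4. None of 12 neutrophil markers passed in either direction by limma (0 at an unadjusted p under 0.05), and 2 of 12 endothelial and stromal markers were lower. The 16 genes of S, G2 and M phase were all higher in GFP1, with a summed level of 888 to 1125 ppm in GFP4, 1219 to 2065 in GFP3, 1902 to 2740 in GFP2, 3472 to 4129 in GFP1 and 2463 to 2905 in Total. Of the 10 genes of HSCs and the sort gate, 7 were lower in GFP1 and 1, Cd48, was higher.

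**Figure D5:**
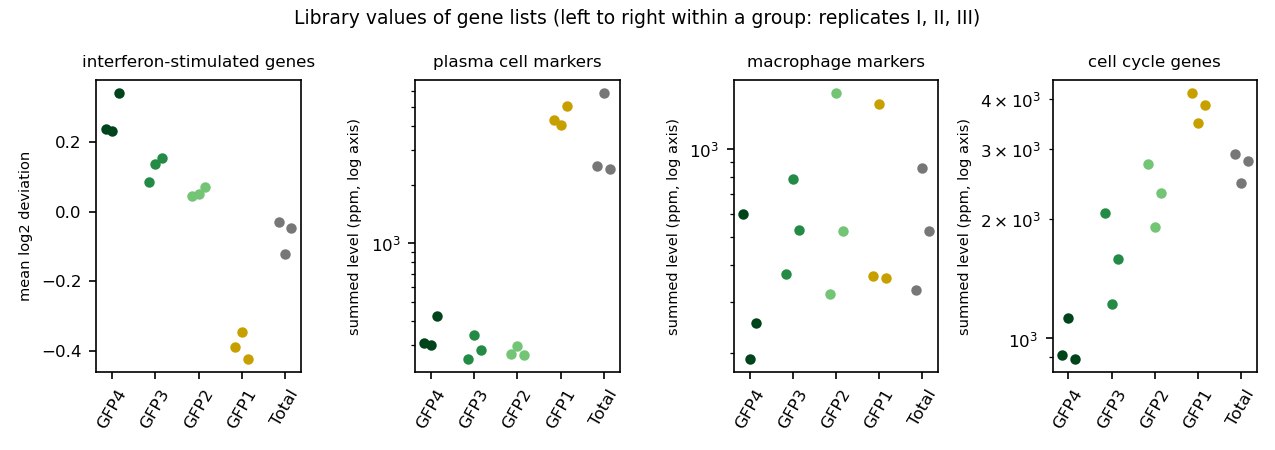
Mean log2 deviation of the 39 genes (left) and summed levels of 10 plasma cell markers, 12 macrophage and monocyte markers and 16 cell cycle genes in ppm (log axes), 1 point per library with replicates I to III left to right in each group. The 39-gene average steps down from GFP4 to GFP1 while the cell cycle sum steps up, with GFP4 at 888 to 1125 and GFP1 at 3472 to 4129 ppm.

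Other genes of the pathway, from lists chosen with earlier results of these data known, were counted the same way. Of 18 further JAK-STAT and interferon regulatory factor genes, 7 fell in GFP1 relative to GFP4 and none rose. The shares over all genes were 10.3% and 9.27%. Irf2, which competes with Irf1 for its sites, fell by 0.88 (SE 0.091, adjusted p = 8.42e-07). The receptor kinase Jak1 fell by 0.59 (SE 0.087, adjusted p = 4.38e-05), while its partner Tyk2 differed by 0.0096 (95% interval −0.22 to 0.24).

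Of 17 sensing adaptors and kinases 7 were lower and 1 higher, against 10.3% and 9.27% of all genes. Tmem173, the DNA-sensing adaptor STING, fell by 0.92 (SE 0.12, adjusted p = 1.04e-05) and Ikbke, a kinase that activates Irf7, by 0.89 (SE 0.12, adjusted p = 1.07e-05). Mb21d1, which encodes cGAS, the enzyme that signals to STING, rose by 0.72 (SE 0.14, adjusted p = 0.000907). The GFP1 libraries of Mb21d1 had log2 values of 9.997, 10.25 and 10.20 and the GFP4 libraries 9.33, 9.28 and 9.67, with no overlap.

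Of 47 further interferon-induced genes 37 were lower in GFP1 and 2 higher, against 10.3% and 9.27% of all genes. The median log2 difference of the 47 was −0.87. Iigp1, an immunity-related GTPase, had log2 values of 12.71, 12.72 and 12.96 in GFP4, 12.18, 12.14 and 12.52 in GFP3, 11.59, 11.96 and 12.03 in GFP2, 10.43, 10.61 and 10.69 in GFP1 and 11.63, 11.70 and 11.49 in Total, with no overlap between the bins. Iigp1 fell by 2.21 (SE 0.13, adjusted p = 9.34e-10). Gbp9, a guanylate-binding protein, fell by 2.97 (SE 0.17, adjusted p = 1.47e-09), with GFP1 libraries at 9.32, 9.19 and 8.65 and GFP4 libraries at 11.87, 12.14 and 12.07. The genes that rose were Ifi27l2a, a relative of Ifi27 (1.67, SE 0.29, adjusted p = 0.000346), and Ifi30, a lysosomal thiol reductase of antigen-presenting cells (1.31, SE 0.24, adjusted p = 0.000427). Within the 3 upper bins 17 of the 47 were lower in GFP2 than in GFP4 and 1 was higher. Over all genes the shares were 2.03% and 2.80%.

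Ly6a encodes Sca1, which is interferon-induced and also part of the sort gate that every group shares. It was counted both among the 47 genes and among the 10 genes of HSCs and the sort gate. Its log2 values were 14.06, 13.88 and 14.24 in GFP4, 13.08, 13.64 and 13.71 in GFP3, 12.67, 13.12 and 13.06 in GFP2, 13.00, 13.40 and 12.90 in GFP1 and 13.21, 13.89 and 13.70 in Total. Ly6a was highest in GFP4, the lowest bin mean was that of GFP2, and it fell by 0.96 in GFP1 relative to GFP4 (SE 0.22, adjusted p = 0.0069).

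Transcripts of the interferons themselves, Ifnz apart, were near the lowest value. Of 21 ligand genes listed, 20 were found in the table and 18 were tested, and their summed level was 1.45 to 1.76 ppm in GFP1 and 1.79 to 2.50 ppm in GFP4. All but Ifnz were at the lowest value in at least 1 library. Ifnz had a mean log2 value of 4.65 in GFP1 and 5.64 in GFP4, so the sum is not only of genes near the lowest value. Ifna12 passed as lower in GFP1 (−1.94, SE 0.62, adjusted p = 0.0306), with all 3 GFP1 libraries at the lowest value of 0.14 and GFP4 libraries at 2.43, 1.06 and 2.76. At that level the size of the difference depends on the offset in the values.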

How the data were processed

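Per the labels' protocols, sorted-cell RNA was amplified as full-length cDNA with SMART-Seq v4, and Nextera XT was used for the libraries. The submitters' processing notes name kallisto 0.43.0 and the build GRCm38; no source used here gives the unit before the logarithm, its offset or the steps from transcripts to genes. What the authors deposited is 1 table of log2 values for 31298 gene symbols in 15 libraries. The columns share one distribution apart from the lowest values, the pattern that quantile normalisation leaves, though no source used here records that step. A shared distribution removes differences in total RNA and lets genes that enter the top ranks push others down. Read depth is unknown, so no counting error is given.

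The planned design named a count model for counts and limma for log2 values, and limma was used since the table held log2 values. A gene was tested where its linear value (2 to the power of the log2 value, minus 1) reached 1 in 3 or more libraries. The fit gave each group 1 mean over all 15 libraries (limma 3.58.1, R 4.3.3, intensity trend and robust moderation, residual df 10, no covariate). P-values were adjusted by Benjamini-Hochberg over all 27994 genes in each comparison, with a threshold of 0.05. Errors are limma's moderated standard errors, and log2 differences understate the change of genes near the lowest value. GFP2 against GFP4 was also fitted on 9 libraries. On simulated data with 200 changed genes the fit was tested before use. Positions come from GENCODE on GRCm38.

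The 39 genes, the other gene lists and the tests were chosen with earlier results of these data known. Values in every library are given for the 3 genes with the smallest p, the smallest p in each role, the receptors, the signalling factors, genes with a positive difference and genes not past the threshold with a mean log2 of at least 8; the rest are given by their differences. Other lists give up to 2 genes each way by smallest p, with Jak1, Tyk2, Ly6a and paralogs added after their values were seen; 1 gene of the JAK-STAT list is not reported here. The replicate numbers I to III mark age and length of doxycycline. Deviations of same-numbered libraries from their group means correlated at a median r of 0.19 (r from −0.41 to 0.59, over 0.1 in 21 of 30 pairs). For libraries of different numbers the median r was −0.105 (over 0.1 in 10 of 60 pairs). The main fit was planned without a replicate term and was kept so. Alternatives tried were quantile normalisation without immunoglobulin genes, median-of-ratios rescaling, no filter, a filter at 1 ppm, pseudocounts of 0.1 and 10, array weights, a replicate block, the compared groups alone, bin number as a covariate, no trend or robust moderation, and each library left out. Leaving out the libraries highest in macrophage markers was added after seeing the data.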

Additional observations from a re-analysis of the deposited data

How the results depend on the processing

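Direction held for 38 of the 39 genes in GFP1 against GFP4 under all 26 other settings. The exception, Ifnar2, ran from −0.052 to 0.053 with 1 library left out (negative without GFP4 replicate I or II or GFP1 replicate II) and was −0.052 without GFP1 replicate II and GFP2 replicate II together. The count lower in GFP1 was 24 to 31 in the settings that kept every library, 26 without both libraries highest in macrophage markers, and 22 to 29 with 1 library left out (22 without GFP4 replicate III). Over single genes and settings, 965 values kept their direction and side of the threshold, 23 lost the call, 22 gained it and 4 turned sign. The lost calls were of Ifngr2, Bst2, Zbp1, Oas3, Xaf1, Ifih1, Isg15 and Samd9l.

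The fit with neither intensity trend nor robust moderation moved the smaller counts. It gave 10 lower in GFP1 against GFP2, 0 for the last step less the first, 0 lower and 0 higher in GFP2 against GFP4 in the 3 upper bins, 0 lower in GFP4 against Total, 1 higher in GFP3 against Total and 3 lower in GFP1 against Total. With the compared groups alone there were 0 lower in GFP4 against Total, 0 higher in GFP3 against Total and 2 lower in GFP1 against Total; that setting was not run for the 3 upper bins. The filter at 1 ppm gave 5 higher in GFP3 against Total, and normalisation without immunoglobulin genes gave 2 for the last step less the first. Without both macrophage-high libraries that count was 1, and 0 were higher in GFP2 against GFP4 in the upper bins. Higher in GFP4 against Total were 10 with the compared groups alone, 10 with neither trend nor robust moderation and 18 with the replicate block. The cause of these shifts was not tested. With 1 library left out, the lowest and highest counts were 24 and 29 lower for the trend, 11 and 19 lower in GFP1 against GFP2, 2 and 6 for the last step less the first, 4 and 9 lower and 0 and 1 higher in the upper bins, 12 and 15 higher and 0 and 1 lower in GFP4 against Total, 1 and 2 higher in GFP3 against Total, 0 and 1 higher in GFP2 against Total (1 without Total replicate I), and 5 and 9 lower in GFP1 against Total.

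With the replicate number as a block, GFP1 was below GFP4 past the threshold in 31 of the 39, and in 3139 of all genes. The 4 genes gained were Ifngr1, Eif2ak2 (adjusted p = 0.0397), Mx1 and Ifi35, and none was lost. The libraries share a number and not a stated origin; 13 of 15 correlated best with libraries of their own number, which is a hint from the data, and the GFP1 and GFP4 pairs correlated at r = −0.29, −0.0020 and 0.16. Only 3 libraries per group and an unknown read depth limit what small differences can show.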
